A study of Mus musculus with 6 samples.

Results

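The mouse has 4 classical Fc gamma receptor genes, Fcgr1, Fcgr3, Fcgr4 and Fcgr2b, and all 4 were found by name among the 54532 genes of the deposited expression table. They were followed in 6 RNA-seq libraries made from wild-type mouse primary macrophages. The 3 rmMETRNL libraries came from cells that received rmMETRNL for 6 h and then met the yeast Candida albicans for 6 h, and the 3 vehicle libraries came from cells that received vehicle before the same challenge. The labels name the protein METRNL (meteorin-like) and give neither its dose, nor the tissue the macrophages came from, nor whether replicates were separate animals or cultures, so the p-values rest on a spread among libraries that may be technical only. Both groups met the fungus, and the effect of the fungus itself is not measured by this comparison. Table columns were assigned to the pretreatments by the letters in their names, and each direction given here rests on that reading. One protocol label speaks of retinas, at odds with the macrophages of every other label.

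Fc gamma receptors bind the constant part of IgG and let a macrophage take up particles that antibody has coated. Fcgr1, Fcgr3 and Fcgr4 are the activating receptors: each signals through a separate chain, encoded by Fcer1g, that carries an activating tyrosine motif, and Fcgr1 is the one with high affinity for IgG. Fcgr2b is the inhibitory receptor, which carries an inhibitory motif in its own tail and recruits the lipid phosphatase encoded by Inpp5d. The balance of both kinds on a cell is known to set its threshold for activation by immune complexes.

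The macrophages carried high Fcgr2b and Fcgr3 transcript levels and very low Fcgr4 and Fcgr1 levels in both groups. No receptor differed between rmMETRNL and vehicle beyond the spread between libraries, activating or inhibitory. For Fcgr2b and Fcgr3 that statement is narrow, as their 95% confidence intervals (limma voom on recovered reads) spanned only 0.914 to 1.05 and 0.869 to 1.02 of the vehicle level. For Fcgr4 and Fcgr1 it is wide, with intervals of 0.947 to 1.84 and 0.666 to 1.61.

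Libraries held between 13235001 and 18145733 reads or read pairs, recovered from the deposited values. Macrophage genes were present throughout, with 6 of 6 markers at a mean of at least 1 FPKM (fragments per kilobase of gene length, scaled to the library's total, a level per length). Retina markers were at or near 0, with a summed list level of 0.552 to 0.855 FPKM in rmMETRNL libraries and 0.391 to 0.591 FPKM in vehicle libraries. rmMETRNL library 3 stood apart in 1 respect: across genes, its deviation from the mean of all libraries correlated with gene length at 0.203. Vehicle library 3, the deepest, lay furthest the other way at -0.14, and the remaining libraries lay between -0.0848 and 0.0534. Without rmMETRNL library 3 the log2 fold changes were 0.08 for Fcgr1, -0.10 for Fcgr3, 0.34 for Fcgr4 and -0.04 for Fcgr2b. Without vehicle library 3 they were 0.16 for Fcgr1, -0.07 for Fcgr3, 0.10 for Fcgr4 and -0.0050 for Fcgr2b. None passed the test in either case.

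Fcgr2b, Fcgr4 and Fcgr3 lie side by side on chromosome 1, and Fcgr1 lies alone on chromosome 3 (GRCm38, coordinates as deposited). Fcgr2b (ENSMUSG00000026656) spans 170958617 to 170976547 on the minus strand. Fcgr4 (ENSMUSG00000059089) spans 171018920 to 171029761 on the plus strand. Fcgr3 (ENSMUSG00000059498) spans 171051174 to 171064935 on the minus strand. Fcgr1 (ENSMUSG00000015947) spans 96282909 to 96293969 on the minus strand of chromosome 3. The shared chain gene Fcer1g (ENSMUSG00000058715) is also on chromosome 1, at 171229572 to 171234365.

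Fcgr2b and Fcgr3, which lie on either side of Fcgr4, are close copies over the part that encodes the IgG-binding region. The coding sequences printed next show a stretch where both genes are identical. Over aligned coding bases of the longest complete transcripts they were 86.8% identical, where the other 5 pairs of receptors were 64.6% to 68.7% identical. Their longest identical stretch was 129 bases, at coding positions 263 to 391 of Fcgr3 and 278 to 406 of Fcgr2b, counted from the start codon in GENCODE M21 transcripts. It is shown in capitals, 5′ to 3′, with 10 bases of each gene's own sequence on either side in lower case.
Fcgr3: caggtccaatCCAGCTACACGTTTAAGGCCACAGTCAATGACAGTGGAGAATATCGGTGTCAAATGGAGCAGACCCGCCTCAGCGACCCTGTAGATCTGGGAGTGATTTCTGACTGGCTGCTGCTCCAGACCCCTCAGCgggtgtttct
Fcgr2b: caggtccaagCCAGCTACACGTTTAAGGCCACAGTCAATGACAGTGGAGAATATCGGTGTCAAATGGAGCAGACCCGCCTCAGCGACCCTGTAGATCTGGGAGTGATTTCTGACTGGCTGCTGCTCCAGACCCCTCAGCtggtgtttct

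A read that falls wholly within the capitals fits both genes. Of the 31-base words of the longest complete Fcgr3 transcript, 17.7% also occurred in Fcgr2b, and 30.2% of those in its coding part did. Of the words of the longest complete Fcgr2b transcript, 6.63% occurred in Fcgr3 and 15.1% occurred in at least 1 other gene, Fcgr3 included. Fcgr1 shared 0% of its words with any other gene and Fcgr4 1.31%. How reads that fit several genes were assigned is not given in the sources used here, so the Fcgr3 and Fcgr2b levels carry an uncertainty that the library spread does not show, and its part in them was not tested.

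**Figure D1:**
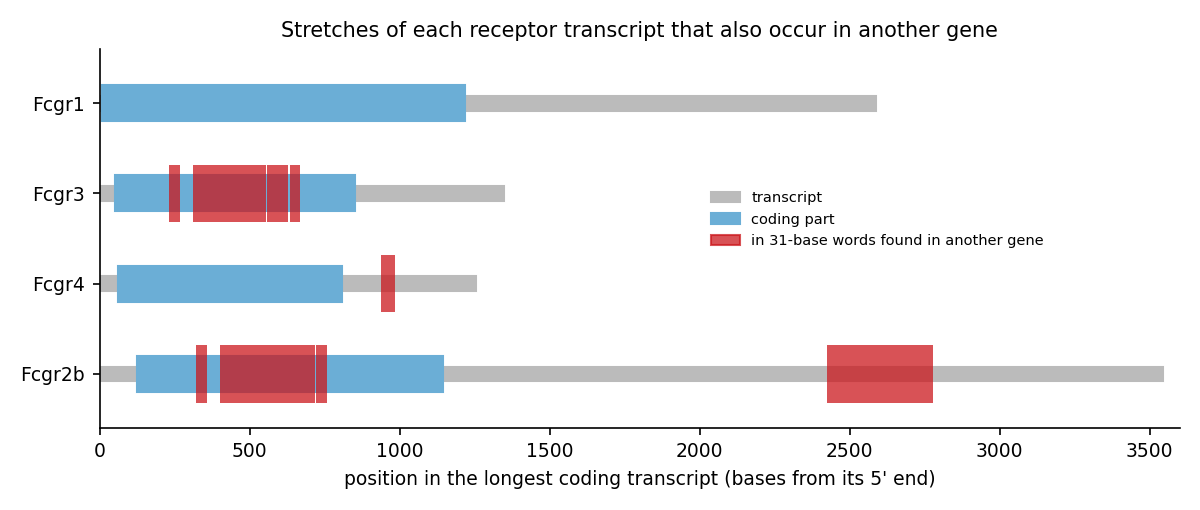
Map of the longest complete coding transcript of each receptor gene, with position in bases from the 5' end on the x axis, the transcript in grey, its coding part in blue and bases within 31-base words that occur in another gene in red. The Fcgr3 and Fcgr2b coding parts carry red stretches, Fcgr2b has a further one outside its coding part, and Fcgr1 has none. In Fcgr4 1.31% of words occur in another gene, and 0% of those wholly within its coding part.

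Fcgr2b, the inhibitory receptor, had the highest level of the 4. It stood at 166, 167 and 173 FPKM in the rmMETRNL libraries and at 166, 173 and 175 FPKM in the vehicle libraries. The groups overlapped almost fully. Their means were 169 ± 3.87 FPKM with rmMETRNL and 171 ± 4.46 FPKM with vehicle (SD, n = 3 each, as for all means below), a log2 fold change of -0.02 (95% confidence interval -0.12 to 0.08, SE 0.04). It did not pass the test, limma on log2(FPKM + 1) with Benjamini-Hochberg adjustment over all 9867 genes tested (adjusted p = 0.87). Between 13373 and 18414 reads per library lay behind these values. Rescaled to TPM (each library's levels per length brought to one sum) the estimate changed sign, at 0.0014. An antisense gene, Gm38204, covers 2.68% of the Fcgr2b exon bases from the opposite strand and stood at 2.87 FPKM with rmMETRNL and 2.58 FPKM with vehicle.

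Fcgr3, the activating receptor of low affinity for IgG, followed closely. It had 148, 147 and 154 FPKM in the rmMETRNL libraries and 163, 152 and 158 FPKM in the vehicle libraries. rmMETRNL library 3 lay above vehicle library 2, so the groups overlapped by that pair. The means were 149 ± 3.90 FPKM with rmMETRNL and 158 ± 5.90 FPKM with vehicle, a log2 fold change of -0.08 (95% confidence interval -0.18 to 0.03, SE 0.05, limma adjusted p = 0.481). Leaving out any single library kept the estimate between -0.10 and -0.05.

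Fcgr4, an activating receptor that in mice binds IgG2a and IgG2b, was low. Its values were 4.20, 4.97 and 3.92 FPKM in the rmMETRNL libraries and 4.10, 3.87 and 2.40 FPKM in the vehicle libraries, from 73 to 98 reads and 55 to 78 reads per library. The rmMETRNL values were the higher ones on average but rmMETRNL library 3 lay below vehicle library 1. The means were 4.36 ± 0.545 FPKM with rmMETRNL and 3.46 ± 0.919 FPKM with vehicle, a log2 fold change of 0.28 on the log2(FPKM + 1) scale (95% confidence interval -0.11 to 0.68, SE 0.17, limma adjusted p = 0.475). Vehicle library 3 weighed heavily here, and without it the estimate was 0.10. Limma voom on the recovered reads, which adds no pseudocount of 1 FPKM, gave a log2 fold change of 0.40 for Fcgr4 (95% confidence interval -0.08 to 0.88, adjusted p = 0.399).

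Fcgr1, the high-affinity receptor, was the lowest. Its levels were 0.845, 1.94 and 1.25 FPKM in the rmMETRNL libraries and 1.15, 0.982 and 1.51 FPKM in the vehicle libraries. The lowest and the highest value both belonged to rmMETRNL libraries, so the vehicle range lay inside the rmMETRNL range. The means were 1.35 ± 0.556 FPKM with rmMETRNL and 1.21 ± 0.268 FPKM with vehicle, a log2 fold change of 0.07 (95% confidence interval -0.38 to 0.51, SE 0.19, limma adjusted p = 0.908). With 34 to 79 reads per library, the sign rested on single libraries: it was -0.11 without rmMETRNL library 2 and -0.01 without vehicle library 2. Its mean over all libraries, 1.28 FPKM, was only just above the minimum of 1 FPKM set for testing.

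**Figure D2:**
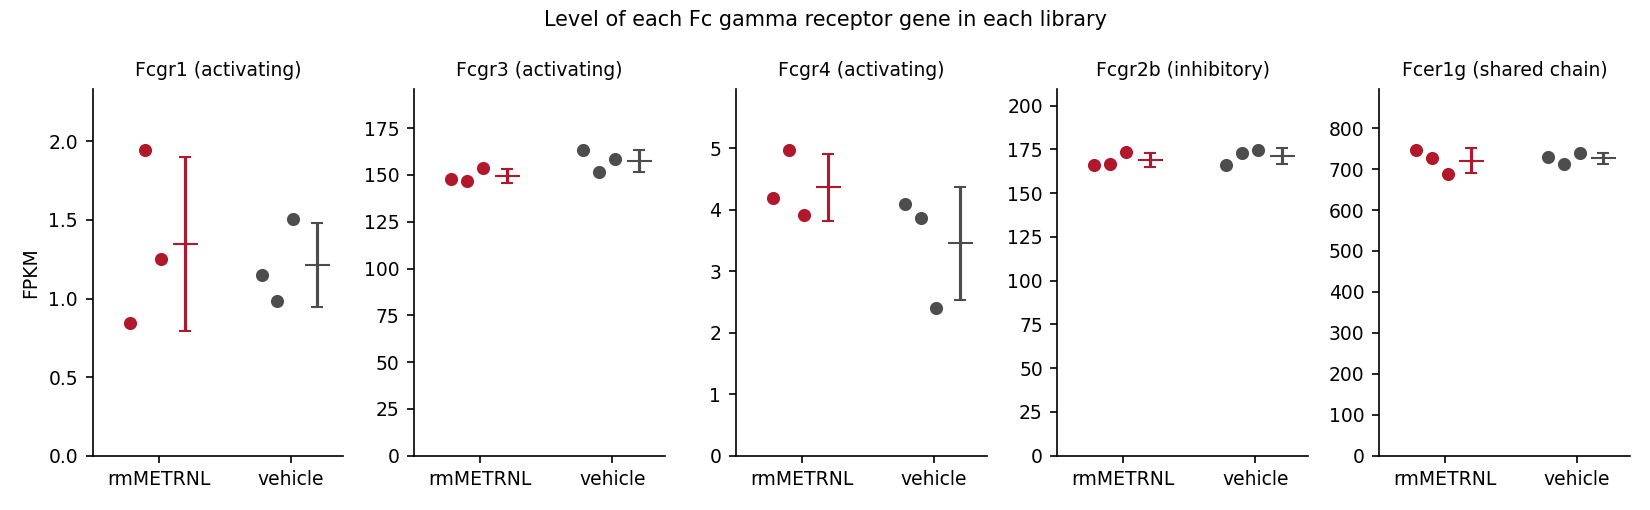
FPKM of each receptor gene and of the shared chain gene Fcer1g in each library (points, replicates 1 to 3 from left to right), with the mean and SD of each group (n = 3) to the right of the points. Each panel has its own axis from 0, and in every panel the rmMETRNL and vehicle points overlap in range, at 166 to 175 FPKM for Fcgr2b and 0.845 to 1.94 FPKM for Fcgr1 over both groups.

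Of the 4 receptors, 0 passed limma, where 0% of all genes tested passed. With voom 0 of 4 passed, against 0.618% of all genes. The groups did not overlap in 0 of 4, against 21.5% of all genes. An unadjusted limma p under 0.05 was reached by 0 of 4, against 14.7% of all genes (7.54% higher and 7.13% lower with rmMETRNL). Set among the 483 genes that averaged 100 FPKM or more, the size of the log2 fold change was at percentile 10.1 for Fcgr2b and at percentile 39.3 for Fcgr3. The estimates were positive for 2 of 4 receptors, against 48.4% of all genes.

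Activating and inhibitory receptors were then set against each other within each library. The summed FPKM of Fcgr1, Fcgr3 and Fcgr4 was 0.92, 0.919 and 0.918 of the Fcgr2b level in the rmMETRNL libraries, and 1.01, 0.905 and 0.929 of it in the vehicle libraries. The rmMETRNL ratios lay close together and inside the vehicle range. Fcgr3 supplied nearly all of the activating sum, so the Fcgr3 to Fcgr2b ratio was much the same, 0.885 ± 0.00644 with rmMETRNL and 0.922 ± 0.0546 with vehicle. Fcgr4 stood at 0.0259 ± 0.00363 of Fcgr2b with rmMETRNL and at 0.0203 ± 0.00575 with vehicle. Fcgr1 stood at 0.00798 ± 0.00335 of Fcgr2b with rmMETRNL and at 0.00707 ± 0.00148 with vehicle. All 3 ratios overlapped between the groups.

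Taken as a difference of log2 fold changes, Fcgr3 moved -0.06 relative to Fcgr2b, Fcgr4 0.30 and Fcgr1 0.08. The mean of log2(FPKM + 1) over the 3 activating genes, minus that of Fcgr2b, averaged -3.79 ± 0.155 in rmMETRNL libraries and -3.90 ± 0.107 in vehicle libraries. That is a difference of 0.11, about the size of the SDs, with overlapping ranges of -3.89 to -3.61 with rmMETRNL and -3.99 to -3.78 with vehicle, and no test is given for a score over chosen genes. It gives Fcgr4 and Fcgr1 the same weight as Fcgr3, and therefore its sign differs from that of the summed ratio.

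**Figure D3:**
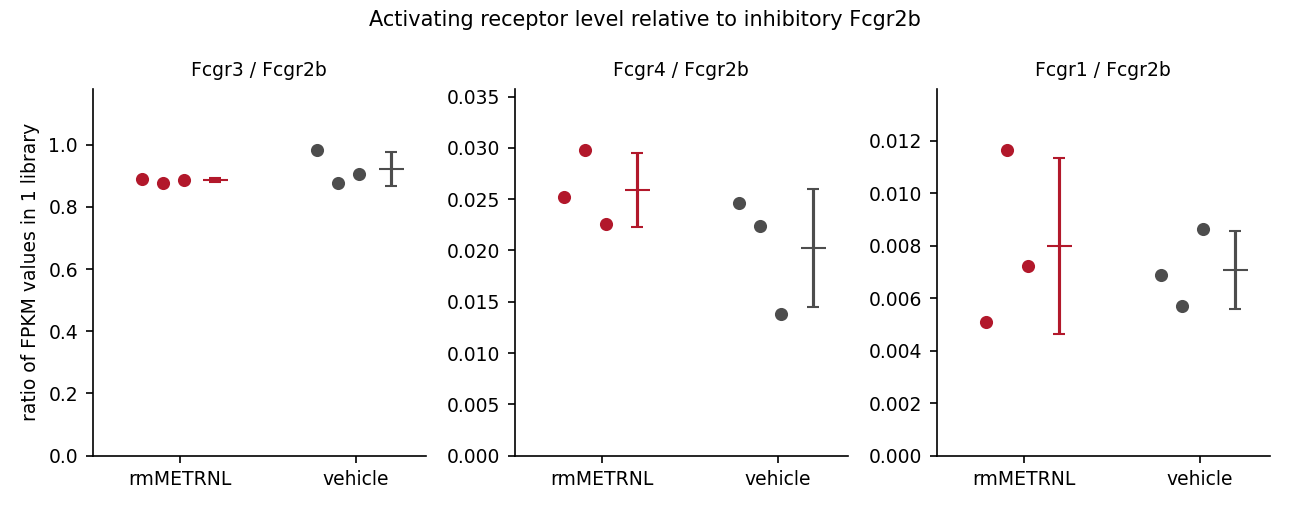
Ratio of the FPKM of each activating receptor gene to that of Fcgr2b in each library (points), with the mean and SD of each group (n = 3); each panel has its own axis from 0. The groups overlap in each panel, and the 3 rmMETRNL libraries sit within 0.878 and 0.89 for Fcgr3 while the vehicle libraries span 0.877 to 0.983.

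The order of levels was Fcgr2b, Fcgr3, Fcgr4, Fcgr1 in both groups. Fcgr2b and Fcgr3 were neighbours whose values did not overlap over all 6 libraries (lowest Fcgr2b 166 FPKM, highest Fcgr3 163 FPKM), yet that gap was small against what the length of the gene does to an FPKM. The table divides Fcgr2b reads by 5790 bases, the union of all annotated exons, while its 4 complete protein-coding transcripts are 1084 to 3544 bases long. For Fcgr3 the table uses 1736 bases against 1324 to 1347. Computed on the longest complete coding transcript, Fcgr2b stood at 276 ± 6.33 FPKM with rmMETRNL and 280 ± 7.28 FPKM with vehicle, and Fcgr3 at 193 ± 5.02 FPKM with rmMETRNL and 203 ± 7.61 FPKM with vehicle. On the shortest one Fcgr2b reached 902 ± 20.7 FPKM with rmMETRNL and 914 ± 23.8 FPKM with vehicle. These levels divide all reads of a gene by the length of a single transcript. They would be lower if some reads lie outside that transcript, and where the reads lie was not examined. The Fcgr3 to Fcgr2b ratio of means was accordingly 0.698 with rmMETRNL and 0.727 with vehicle on the longest transcripts, and 0.217 with rmMETRNL and 0.226 with vehicle on the shortest. From the table's lengths to the longest and the shortest transcripts, the Fcgr4 to Fcgr2b ratio of means was 0.0258, 0.0158 and 0.00484 with rmMETRNL and 0.0202, 0.0124 and 0.00378 with vehicle. The Fcgr1 to Fcgr2b ratio was 0.00797, 0.00488 and 0.00149 with rmMETRNL and 0.00708, 0.00433 and 0.00133 with vehicle. For the activating sum it was 0.919, 0.719 and 0.224 with rmMETRNL and 0.948, 0.743 and 0.231 with vehicle. Each ratio thus fell with the length used for Fcgr2b, in both groups alike. These lengths, chosen after seeing the data, apply equally to all libraries and leave the comparison between pretreatments as it was.

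Fcgr4 and Fcgr1 have 1 complete coding transcript each, of the length in the table. On the deposited gene lengths Fcgr3 lay 34.3-fold above Fcgr4 with rmMETRNL and 45.6-fold above it with vehicle. The length used for Fcgr3 moves this ratio. It was 44.1 with rmMETRNL and 58.8 with vehicle on the longest transcripts, and 44.9 with rmMETRNL and 59.8 with vehicle on the shortest. Between Fcgr4 and Fcgr1 the values of all libraries stayed apart, with a lowest Fcgr4 value of 2.40 FPKM and a highest Fcgr1 value of 1.94 FPKM.

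**Figure D4:**
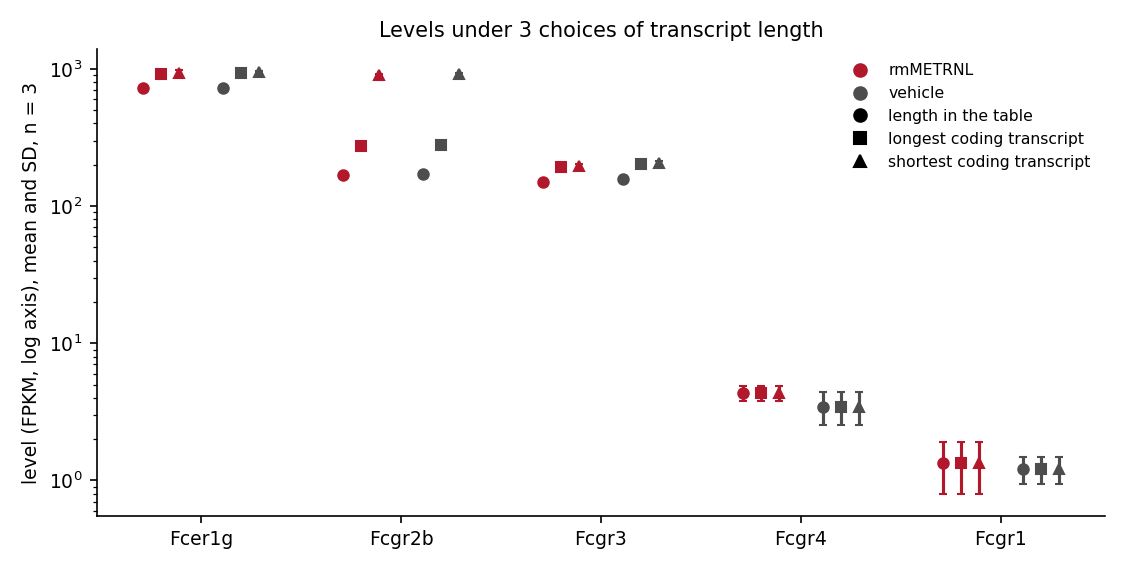
Mean level of each gene on a log axis (FPKM, SD bars, n = 3) in rmMETRNL (red, left) and vehicle (grey, right) libraries, computed with the gene length in the table (circles) and with the longest (squares) and shortest (triangles) complete coding transcript. Fcgr2b spans 169 to 902 FPKM with rmMETRNL between these lengths, while Fcgr4 and Fcgr1 do not move with them.

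Fcer1g, the chain through which the activating receptors signal, had a far higher level than any receptor on the deposited gene lengths. It stood at 746, 727 and 688 FPKM in the rmMETRNL libraries and at 729.5, 712 and 739 FPKM in the vehicle libraries. rmMETRNL libraries held both the highest and the lowest value. Its means of 721 ± 29.8 FPKM with rmMETRNL and 727 ± 13.5 FPKM with vehicle gave a log2 fold change of -0.01 (95% confidence interval -0.12 to 0.09, limma adjusted p = 0.923). On these lengths that is 2.23 ± 0.139 times the summed FPKM of the 4 receptors with rmMETRNL and 2.18 ± 0.0148 times with vehicle. Rescaled to the shortest complete coding transcripts, Fcer1g stood at 934 FPKM with rmMETRNL and 943 FPKM with vehicle. Fcgr2b then stood close to it, at 902 FPKM with rmMETRNL and 914 FPKM with vehicle, so the excess of Fcer1g depends on the lengths used.

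Of the 14 genes listed as other Fc receptors and shared chain, 4 were above the level tested and 0 passed, with 2 positive and 2 negative log2 fold changes. Besides Fcer1g these were Fcrlb, an Fc receptor-like gene, Fcgrt, which encodes the neonatal Fc receptor that recycles IgG, and Fcmr, the Fc receptor for IgM. Fcrlb was well expressed, at 49.2 ± 2.10 FPKM with rmMETRNL and 50.7 ± 2.14 FPKM with vehicle. Fcgrt had 2.40 ± 0.331 FPKM with rmMETRNL and 2.31 ± 0.355 FPKM with vehicle, and Fcmr 1.08 ± 0.0334 FPKM with rmMETRNL and 1.02 ± 0.326 FPKM with vehicle. Trim21, the cytosolic antibody receptor, stood at 0.807 ± 0.0614 FPKM with rmMETRNL and 0.673 ± 0.187 FPKM with vehicle, under the level tested.

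Genes that carry the activating signal onward had more positive than negative estimates, and none passed. Of 24 tested members of that list, 17 had a positive and 7 a negative log2 fold change (48.4% of all genes were positive), with a median of 0.04 beside -0.0056 over all genes tested, and 0 passed limma or voom. For 7 of the 24, each rmMETRNL library exceeded each vehicle library, against 10.9% of all genes, and for 1 each lay lower, against 10.6%. Vav1, an exchange factor for Rac, had the smallest p, at 67.5, 66.0 and 64.7 FPKM in the rmMETRNL libraries and 60.3, 61.2 and 59.2 FPKM in the vehicle libraries (log2 fold change 0.13, SE 0.04, limma adjusted p = 0.261). All 3 rmMETRNL values lay above all 3 vehicle values. Pik3r1 and Pik3cb, a regulatory and a catalytic subunit of phosphoinositide 3-kinase, also did not overlap. Pik3r1 had 4.80 ± 0.129 FPKM with rmMETRNL and 4.17 ± 0.0727 FPKM with vehicle, and Pik3cb 42.7 ± 2.31 FPKM with rmMETRNL and 38.8 ± 0.908 FPKM with vehicle. The kinase gene Src had 8.05 ± 0.593 FPKM with rmMETRNL and 6.97 ± 0.434 FPKM with vehicle.

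Syk and Lyn, kinases that act first at the receptors and named here for that role, had estimates near 0. Syk, which docks on the phosphorylated activating motif, stood at 87.3 ± 5.36 FPKM with rmMETRNL and 86.8 ± 5.17 FPKM with vehicle. Lyn, which phosphorylates the motifs, had 47.3 ± 1.65 FPKM with rmMETRNL and 47.8 ± 0.652 FPKM with vehicle. Their 95% confidence intervals on the log2 scale were -0.15 to 0.16 for Syk and -0.12 to 0.09 for Lyn.

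Genes of inhibitory signalling had 5 positive and 7 negative log2 fold changes among 12 tested, with a median of -0.03, and 0 passed limma or voom. In 2 of 12 each rmMETRNL library lay below each vehicle library, against 10.6% of all genes, and in 0 each lay above, against 10.9%. The docking protein genes Dok2 and Dok3 had the smallest p. Dok2 stood at 9.13, 7.99 and 8.76 FPKM in the rmMETRNL libraries and at 10.6, 10.6 and 9.22 FPKM in the vehicle libraries, groups that did not overlap (log2 fold change -0.21, SE 0.08, limma adjusted p = 0.305). Dok3 had 33.8 ± 1.47 FPKM with rmMETRNL and 37.6 ± 3.10 FPKM with vehicle, and Dok1 12.9 ± 0.641 FPKM with rmMETRNL and 13.9 ± 1.10 FPKM with vehicle. Inpp5d, the phosphatase that Fcgr2b recruits, stood at 16.9 ± 1.35 FPKM with rmMETRNL and 18.1 ± 1.53 FPKM with vehicle, and the tyrosine phosphatase gene Ptpn6 at 33.9 ± 1.45 FPKM with rmMETRNL and 33.6 ± 2.23 FPKM with vehicle, both with overlapping groups.

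The machinery that closes membrane around an antibody-coated particle was mixed, with 7 positive and 9 negative log2 fold changes among 16 tested genes, a median of -0.04 and 0 past limma or voom. Marcks, which encodes a membrane-bound actin regulator, stood at 19.2, 17.8 and 17.02 FPKM in the rmMETRNL libraries and at 14.3, 14.4 and 14.6 FPKM in the vehicle libraries, wholly apart (log2 fold change 0.30, SE 0.06, limma adjusted p = 0.181). In 1 of the 16 each rmMETRNL library lay above each vehicle library, against 10.9% of all genes, and in 4 each lay below, against 10.6%. Those 4 included the actin regulators Gsn and Coro1a and the small GTPase gene Rac1. Gsn had 48.6 ± 2.88 FPKM with rmMETRNL and 56.2 ± 2.84 FPKM with vehicle, Coro1a 157 ± 8.84 FPKM with rmMETRNL and 177 ± 7.27 FPKM with vehicle, and Rac1 62.9 ± 2.16 FPKM with rmMETRNL and 68.03 ± 0.807 FPKM with vehicle. None of these 3 passed (lowest limma adjusted p = 0.256, for Gsn).

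**Figure D5:**
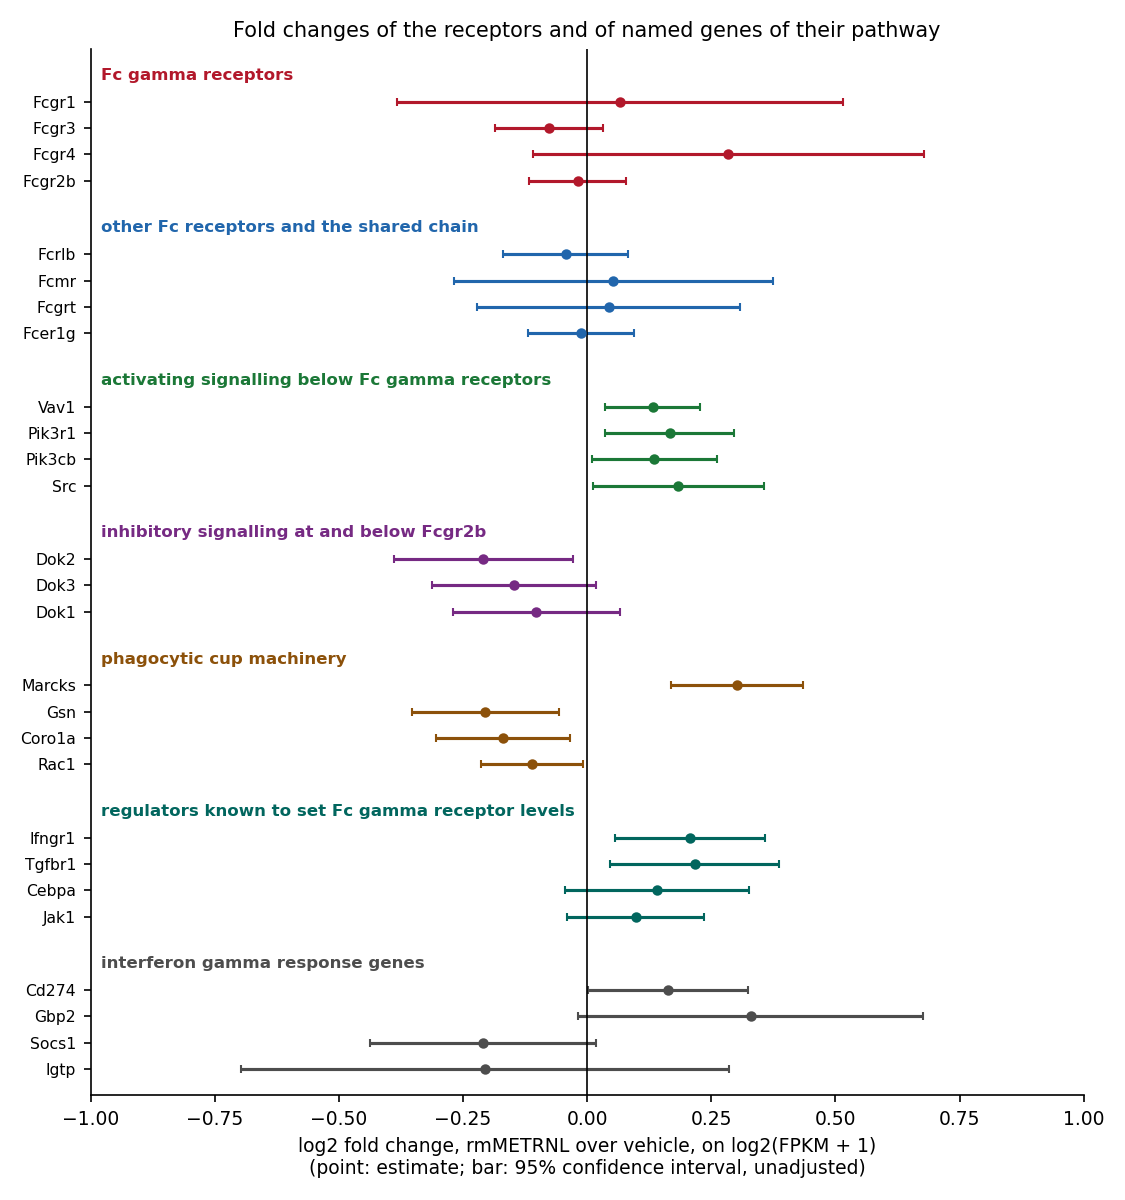
Log2 fold change, rmMETRNL over vehicle, on the log2(FPKM + 1) scale (points) with unadjusted 95% confidence intervals (bars) for the receptors and the genes named from each list. The Fcgr2b and Fcgr3 intervals are narrow around 0, those of Fcgr4 (-0.11 to 0.68) and Fcgr1 (-0.38 to 0.51) are wide, and none of the genes passed the adjusted test.

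PU.1, the product of Spi1, is a known activator of myeloid Fc receptor genes. The 150 bases before the RefSeq starts (GRCm38.p6) are therefore shown for Fcgr1, the lowest receptor, and Fcgr3, an abundant one. Capitals mark the letters GAGGAA, searched on both strands (TTCCTC where they lie on the other one). They contain GGAA, the core of a PU.1 site. The letters GAGGAA were chosen after the sequences had been seen, so their presence or absence in these windows tests no difference between receptors.
Fcgr1, chr3:96293970-96294119, minus strand: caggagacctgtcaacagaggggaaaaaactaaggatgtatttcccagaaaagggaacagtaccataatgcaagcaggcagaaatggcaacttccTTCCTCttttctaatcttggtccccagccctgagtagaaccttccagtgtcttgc
Fcgr3, chr1:171059404-171059553, minus strand: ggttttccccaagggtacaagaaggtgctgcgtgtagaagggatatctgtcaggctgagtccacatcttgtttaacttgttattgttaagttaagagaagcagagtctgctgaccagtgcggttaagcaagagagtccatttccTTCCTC

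GAGGAA occurred once each in the Fcgr1, Fcgr3 and Fcgr4 windows and not in that of Fcgr2b, which does hold GGAA. Of 27025 gene promoters of this length 14.4% hold GAGGAA, a share that gives no measure of enrichment for letters chosen after the fact. The first base of GAGGAA lay 55 bases before the start in Fcgr1, 6 in Fcgr3 and 22 in Fcgr4. A match of letters is no evidence of binding, and Fcgr3 has 2 starts in the RefSeq table, of which the first was used. That start lies inside the deposited Fcgr3 span, whose 5′ end is at 171064935. The Fcgr2b window lies inside its gene too, with up to 56 of its bases in an annotated exon, and 6 bases of the Fcgr4 window are exonic.

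Interferon gamma is known to raise Fcgr1. Most listed interferon gamma response genes were low in these libraries, and whether that bears on the Fcgr1 level was not tested. Of 12 listed, 5 reached the level tested, 3 positive and 2 negative (48.4% of all genes were positive), and 0 passed. In 1 of the 5 each rmMETRNL library lay above each vehicle library, against 10.9% of all genes, and in 1 each lay below, against 10.6%. Cxcl9, a chemokine gene induced strongly by interferon gamma, had 0 FPKM in all 3 rmMETRNL libraries and at most 0.0219 FPKM in a vehicle library. Cxcl10, induced by interferons of both types, had 0.457, 0.509 and 0.21 FPKM in the rmMETRNL libraries and 0.322, 0.332 and 0.0975 FPKM in the vehicle libraries. The guanylate-binding protein gene Gbp2 had 2.88 ± 0.232 FPKM with rmMETRNL and 2.12 ± 0.639 FPKM with vehicle, Socs1, a feedback inhibitor, 1.91 ± 0.268 FPKM with rmMETRNL and 2.36 ± 0.162 FPKM with vehicle, and Igtp, an interferon-inducible GTPase gene, 0.936 ± 0.451 FPKM with rmMETRNL and 1.21 ± 0.323 FPKM with vehicle. Cd274, which encodes PD-L1 and was abundant, had 199 ± 15.7 FPKM with rmMETRNL and 178 ± 8.19 FPKM with vehicle, groups that did not overlap (limma adjusted p = 0.337). The Socs1 groups did not overlap either, with rmMETRNL lower (limma adjusted p = 0.369).

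Regulators known to set Fc receptor levels had 10 positive and 5 negative log2 fold changes among 15 tested (48.4% of all genes were positive). Their median was 0.04, and 0 passed limma or voom. In 2 of 15 each rmMETRNL library lay above each vehicle library, against 10.9% of all genes, and in 0 each lay below, against 10.6%. Ifngr1, the ligand-binding chain of the interferon gamma receptor, stood at 16.3, 15.2 and 16.6 FPKM in the rmMETRNL libraries and at 12.8, 14.5 and 13.9 FPKM in the vehicle libraries. These groups did not overlap (log2 fold change 0.21, SE 0.06, limma adjusted p = 0.262). Tgfbr1, a receptor for transforming growth factor beta, had 6.13 ± 0.465 FPKM with rmMETRNL and 5.13 ± 0.28 FPKM with vehicle, also without overlap (limma adjusted p = 0.278). The myeloid transcription factor gene Cebpa had 14.04 ± 0.883 FPKM with rmMETRNL and 12.7 ± 1.12 FPKM with vehicle, and the cytokine receptor kinase gene Jak1 44.2 ± 2.83 FPKM with rmMETRNL and 41.2 ± 1.21 FPKM with vehicle. Spi1 had 74.2 ± 6.32 FPKM with rmMETRNL and 73.8 ± 2.72 FPKM with vehicle, and Irf1 5.64 ± 0.621 FPKM with rmMETRNL and 5.43 ± 0.728 FPKM with vehicle.

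Cells other than macrophages also carry these receptors, and their markers were checked, since in bulk RNA fewer cells of a type and less RNA per cell cannot be told apart. B cells express Fcgr2b and lack the activating receptors. Their 5 markers summed to 6.05 to 6.57 FPKM in rmMETRNL libraries and 5.07 to 6.03 FPKM in vehicle libraries, ranges that did not overlap. NK cells express Fcgr3, and their 5 markers summed to 0.359 to 0.442 FPKM in rmMETRNL libraries and 0.324 to 0.41 FPKM in vehicle libraries. Neutrophils express Fcgr3 and Fcgr4. Their list of 7 summed to 117 to 125 FPKM in rmMETRNL libraries and 105 to 114 FPKM in vehicle libraries, again without overlap. Nearly all of it came from S100a8 (86.1 FPKM with rmMETRNL and 83.7 FPKM with vehicle) and S100a9 (34.8 FPKM with rmMETRNL and 24.4 FPKM with vehicle), which macrophages can also make. Elane was at 0 in each library, Mpo at no more than 0.138 FPKM and Ly6g at no more than 0.49 FPKM. Mast cell markers (5 listed, 3 of them at 1 FPKM or more) summed to 12.5 to 16.2 FPKM in rmMETRNL libraries and 9.73 to 15.5 FPKM in vehicle libraries. Dendritic cell markers (4 listed) summed to 27.8 to 30.5 FPKM with rmMETRNL and 28.3 to 30.9 FPKM with vehicle, nearly all from Ccr7, and those of liver sinusoidal endothelium (4 listed), a cell that expresses Fcgr2b, to 1.58 to 2.63 FPKM with rmMETRNL and 1.61 to 2.27 FPKM with vehicle. The part of these cells in the receptor levels was not tested.

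The 4 receptors did not vary together over the 6 libraries. Pearson correlations of log2(FPKM + 1) between pairs, given as a description over 6 libraries that each contribute all of the values, ranged from -0.72 (Fcgr4 with Fcgr2b) to 0.19 (Fcgr3 with Fcgr2b). The activating receptors also went separate ways, at -0.52 for Fcgr3 with Fcgr4, -0.0913 for Fcgr1 with Fcgr3 and 0.0070 for Fcgr1 with Fcgr4. Among the 3257 named protein-coding genes that averaged 10 FPKM or more, Ell2, a transcription elongation factor gene, was most like Fcgr2b, at 0.985. Gapdh followed at 0.981 and itself varied from 7.48 to 49.9 FPKM over rmMETRNL libraries and from 7.65 to 41.4 FPKM over vehicle libraries. Fcgr2b, Ell2 and Gapdh were all higher in rmMETRNL library 3 and vehicle libraries 2 and 3 than in the remaining libraries. That split crosses the groups, and its cause was not tested. Most like Fcgr3 were Plekhn1 (0.973) and the elongin gene Eloa (0.957). For Fcgr4 it was Aftph (0.98), which encodes a trafficking adaptor. Most like Fcgr1 were Tmem51 (0.947) and Ppp6c (0.941), a phosphatase subunit gene. With so many genes searched over 6 libraries, such values describe these libraries only.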

How the data were processed

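Total RNA from 6 macrophage samples was made into libraries with an Illumina TruSeq kit from 1 ug, per the labels' protocols. The authors deposited 1 table of FPKM values, scaled with the gene lengths it lists. GRCm38 and mm10 are the builds in the submitters' processing notes. The sources used here give no aligner, counting tool, annotation release or strand setting. Columns with names beginning Wr were read as rmMETRNL and Wt as vehicle, their number as the replicate, and every direction rests on that reading.

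Multiplied by gene length, 100% of values fell on multiples of a fixed step in their library (tolerance 0.05 reads), and reads were recovered from that. The 9867 genes averaging 1 FPKM or more were tested two-sided on log2(FPKM + 1), a scale that understates changes of low genes, using limma-trend (limma 3.58.1, R 4.3.3), at an adjusted p of 0.05. Transcript comparisons used GENCODE M21 (GRCm38) and promoters RefSeq (all 4 receptors matched by symbol). Complete transcripts are those with no tag for a missing end.

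The receptors, the 6 pathway lists and the 8 marker lists were chosen with earlier results of these data known. Genes named from a list are the 4 with the smallest p (all tested ones for other Fc receptors), besides those named for their role, and patterns like a receptor are the 2 highest correlations. Alternatives were other pseudocounts, filters, scalings, limma without trend, voom, a replicate block and leaving out each library. Some genes that these rules name are not reported here.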

Additional observations from a re-analysis of the deposited data

How the results depend on the processing

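No receptor passed the test under any alternative in which it was tested, with adjusted p-values from 0.378 to 0.995, and Fcgr3 stayed negative and Fcgr4 positive throughout. The number of genes called, 0 in the test reported, was 5 without a filter, 2 after rescaling to TPM, where Fcgr2b turned to 0.0014, and 61 with limma voom on the recovered reads; the cause was not tested. Leaving out 1 library at a time gave log2 fold changes of -0.11 to 0.23 for Fcgr1, negative without rmMETRNL library 2 or vehicle library 2, -0.10 to -0.05 for Fcgr3, 0.10 to 0.39 for Fcgr4 and -0.04 to -0.0050 for Fcgr2b, and 0.02 to 0.17 for the activating mean minus Fcgr2b. A minimum of 5 FPKM left Fcgr1 and Fcgr4 untested. Transcript lengths, added after seeing the data, moved the Fcgr3 to Fcgr2b ratio to 0.698 (longest) and 0.217 (shortest) with rmMETRNL and to 0.727 and 0.226 with vehicle, by construction. Same-numbered libraries did not deviate together (correlations of -0.0212, 0.0074 and -0.0454, and no library correlated best with its own number), so the numbers are not taken to pair the samples; with the replicate number as a block 0 genes were called, and Fcgr4 had the same log2 fold change, 0.28, with an adjusted p of 0.378. Depth limits Fcgr1, at 34 to 79 reads per library, and Fcgr4, at 55 to 98.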

Other observations

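Some low Fc receptor genes outside the test are given as values, chosen after they were seen. Fcrl1, an Fc receptor-like gene known from B cells, had 7, 8 and 8 reads in the rmMETRNL libraries and 17, 13 and 15 reads in the vehicle libraries. That is 0.126, 0.143 and 0.152 FPKM with rmMETRNL and 0.315, 0.273 and 0.231 FPKM with vehicle. Of all genes tested, 10.6% had each rmMETRNL library below each vehicle library. That share covers genes averaging 1 FPKM or more, so it leaves out Fcrl1, and none was computed for genes as low as Fcrl1. Other low Fc receptor-like genes overlapped between the groups. Mean FPKM with rmMETRNL and with vehicle was 0.466 and 0.401 for Fcrl5, 0.448 and 0.39 for Fcrla, and 0.774 and 0.816 for Fcrls. Fcer1a, which encodes the IgE-binding chain of the mast cell receptor, had 7, 29 and 17 reads in the rmMETRNL libraries and 6, 6 and 30 reads in the vehicle libraries. Fcgr1 had 34, 79 and 48 reads in the same rmMETRNL libraries and 45, 34 and 71 reads in the same vehicle libraries, so rmMETRNL library 2 and vehicle library 3 were the highest of their group for both genes. Ms4a2, the other chain particular to that IgE receptor, had 1 read in rmMETRNL library 3 and 0 elsewhere.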
